A study of Mus musculus with 58 samples.

Results

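The genes described here are 9 genes that mark striatal projection neurons, the medium spiny neurons that form most of the striatum, whichever output pathway the neuron belongs to. They were chosen by name, for a shared place in the identity of these neurons and in dopamine and cAMP signalling. No rule on measured values was used, though earlier results of these data were known. The genes are Ppp1r1b, Rgs9, Pde10a, Pde1b, Adcy5, Gnal, Bcl11b, Foxp1 and Rasd2. All 9 were found in each of the count tables, which list 54532 genes for RNA-seq and 18411 genes for ribosome footprints and lysate RNA, and all 9 passed the filter on low counts in every comparison. The summed counts of the 9 genes made up 0.846% to 1.14% of an RNA-seq library of the 3g line and 0.615% to 1.01% of one of the 16p11.2 line.

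The mice carry on one chromosome either the whole 16p11.2 deletion (16p11.2 del/+, a line obtained from The Jackson Laboratory) or premature stop codons that CRISPR/Cas9 placed in 3 genes of that interval, Taok2, Sez6l2 and Mvp (3g del/+). Each was compared with wildtype (wt) littermates, in bulk striatum of adults 10 to 14 weeks old by the study's methods, with strain given as B6129S for every library. RNA-seq covered 32 libraries, with 4 mice of each sex and genotype in either line. Ribosome footprints and total RNA came from the same striatal lysates of other mice, all males, with 3 del/+ and 3 wt animals in the 3g line and 3 del/+ and 4 wt animals in the 16p11.2 line, and the paper does not describe these mice. The mutations are present in every cell of the animal, and bulk tissue mixes all cell types, so fewer cells of a type and less RNA per cell cannot be told apart. The labels give each library as a separate sample without further detail on cultures or litters, so p-values measure the spread between these samples.

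In projection neurons, dopamine acts through receptors that raise or lower cAMP. Signalling starts from an olfactory-type G protein and adenylyl cyclase, and phosphodiesterases and a regulator of G protein signalling end it, while cAMP-dependent kinase converts DARPP-32 into an inhibitor of protein phosphatase 1. Transcription factors of the Bcl11b and Foxp1 type set up and maintain the identity of these neurons.

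Gnal (ENSMUSG00000024524) encodes the stimulatory G protein alpha subunit Golf, which couples dopamine and adenosine receptors to the cyclase. Adcy5 (ENSMUSG00000022840, chr16:35154494-35305743 in GRCm38.p6) encodes the main adenylyl cyclase of the striatum. Pde10a (ENSMUSG00000023868, chr17:8525187-8986648) and Pde1b (ENSMUSG00000022489, chr15:103503034-103530056) encode phosphodiesterases, the second one activated by calcium and calmodulin. Rgs9 (ENSMUSG00000020599, chr11:109225348-109298181) encodes a GTPase-activating protein that shortens G protein signals. Ppp1r1b (ENSMUSG00000061718, chr11:98348406-98357796) encodes DARPP-32. Rasd2 (ENSMUSG00000034472, chr8:75213944-75224113) encodes the small GTPase Rhes, which is enriched in striatum. Bcl11b (ENSMUSG00000048251, chr12:107910403-108004145) and Foxp1 (ENSMUSG00000030067, chr6:98925342-99522746) encode the transcription factors CTIP2 and FOXP1. The spans are those of RefSeq. Of the 9 genes, 5 are overlapped by 17 other annotated genes, and Gnal is the only one overlapped by protein-coding genes, Chmp1b and Mppe1.

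Promoters were also looked at, and their part in how the genes vary across libraries was not tested. RefSeq promoters of 300 bases, from 250 before to 50 after a listed start, were read for 7 of the 9 genes, 12 promoters in all. Gnal was left out of this selection, and no promoter of Ppp1r1b was included. Their GC content ran from 43% to 79%, and 8 of the 12 lay above the median of 52.7% over all 32851 promoters. The cAMP response element half-site TGACG, searched on both strands, was present in 1 of the 12, a Foxp1 promoter, and in 20.8% of all promoters. The GC box GGGCGG was present in 7 of the 12 against 35.7% of all promoters, and the TATA box TATAAA in 3 of the 12 against 13.6%. By their letters, any pair of these motifs can share 1 end base at most. A match is a string of letters anywhere in the 300 bases, and not a measured binding site. GC box and TATA box are used here as names of these strings, and their distance from the start was not considered. The promoters of the 4 genes with a single listed start are shown because they differ most plainly in make-up, each 5′ to 3′ on the strand of its gene in GRCm38.p6, with capitals marking GC boxes and TATA boxes on either strand.
Rgs9 (chr11:109298132-109298431, minus strand): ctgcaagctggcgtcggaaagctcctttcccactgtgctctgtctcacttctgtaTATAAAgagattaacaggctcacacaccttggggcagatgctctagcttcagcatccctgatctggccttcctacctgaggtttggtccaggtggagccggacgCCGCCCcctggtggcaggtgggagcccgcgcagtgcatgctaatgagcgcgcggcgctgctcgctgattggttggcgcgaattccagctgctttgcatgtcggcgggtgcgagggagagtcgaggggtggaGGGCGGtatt
Adcy5 (chr16:35154614-35154913, plus strand): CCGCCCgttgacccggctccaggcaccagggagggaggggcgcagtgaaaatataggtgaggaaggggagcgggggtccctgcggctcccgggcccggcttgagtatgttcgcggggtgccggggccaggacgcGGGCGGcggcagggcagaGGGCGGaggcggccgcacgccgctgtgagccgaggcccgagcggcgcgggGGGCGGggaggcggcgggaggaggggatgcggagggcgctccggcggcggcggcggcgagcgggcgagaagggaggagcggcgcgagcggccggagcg
Bcl11b (chr12:108003365-108003664, minus strand): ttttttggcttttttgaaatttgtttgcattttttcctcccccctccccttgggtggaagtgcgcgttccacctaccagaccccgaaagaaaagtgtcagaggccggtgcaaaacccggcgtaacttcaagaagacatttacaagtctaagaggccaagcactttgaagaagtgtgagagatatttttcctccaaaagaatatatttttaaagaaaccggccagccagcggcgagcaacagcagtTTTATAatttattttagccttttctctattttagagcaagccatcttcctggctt
Rasd2 (chr8:75213694-75213993, plus strand): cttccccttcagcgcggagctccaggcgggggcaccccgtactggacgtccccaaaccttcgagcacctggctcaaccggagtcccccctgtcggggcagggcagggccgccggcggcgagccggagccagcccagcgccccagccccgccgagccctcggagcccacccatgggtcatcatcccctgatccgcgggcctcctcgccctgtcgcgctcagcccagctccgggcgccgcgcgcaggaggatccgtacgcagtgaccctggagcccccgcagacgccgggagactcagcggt
The Adcy5 promoter was the richest in G and C of the 12, at 79%, and held 4 GC boxes. That of Bcl11b was the poorest, at 43%, and held 1 TATA box and no GC box. The Rgs9 promoter held both kinds, with 2 GC boxes and 1 TATA box. The Rasd2 promoter, at 74.7%, held none of the searched motifs.

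RNA-seq libraries of the 3g line held 11711099 to 65529807 counts and those of the 16p11.2 line 26592767 to 41300015. Lysate RNA libraries held 15102576 to 19122488 counts and footprint libraries 342052 to 678130. Of the targeted genes, Sez6l2, a neuronal membrane protein, had a log2 difference of -0.57 in 3g del/+ males (adjusted p = 0.807, edgeR quasi-likelihood test with Benjamini-Hochberg adjustment) and of -0.49 in females (adjusted p = 0.00336), Mvp of -0.37 and -0.48 (adjusted p = 0.974 and 0.0663), and Taok2, a kinase, of -0.02 in both sexes. In 16p11.2 del/+ mice all 3 genes were called lower in each sex, with log2 differences from -1.24 to -0.98. Several libraries stood apart from their group. The 3g wt male 17 library had a median absolute log2 distance of 0.306 from its group's median over all genes, and held summed cortical neuron markers of 2262 CPM against 556 to 1555 CPM in the other 3g libraries, and oligodendrocyte markers of 11230 CPM against 4237 to 7582 CPM. The 16p11.2 del/+ male 4 library had a distance of 0.254 and oligodendrocyte markers of 5339 CPM against 8203 to 13530 CPM in the other libraries of its line. The 16p11.2 wt male 4 library had a distance of 0.190 and endothelial markers of 176 CPM, near the 171 CPM of 16p11.2 del/+ male 4 and above the 61.7 to 109 CPM of the other 14 libraries. The library labelled 16p11.2 del/+ female 1 held 37.1 CPM of the Y-linked gene Ddx3y and 0.445 CPM of Xist, which goes against its label. All 6 cortical, 6 oligodendrocyte, 5 astrocyte and 5 microglial markers searched were above 0 in every RNA-seq library. CPM are counts scaled by the TMM library sizes within one table, and since they are not per length, levels are compared here between samples and not between genes.

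Across the 16 libraries of the 3g line the 9 genes varied little. Their summed level ran from 8805 to 11389 CPM, a 1.29-fold range, and single genes spanned between 1.25-fold (Pde1b, 1541 to 1922 CPM) and 1.64-fold (Pde10a, 1373 to 2250 CPM). The wt male 26 library held the highest value of all 9 genes, and the wt female 39 library the lowest of 4. The 3g wt male 17 library, which stood apart, was low for only some members. In the wt male libraries 17, 24, 26 and 34, Pde10a stood at 1373, 1783, 2250 and 1629 CPM, Rgs9 at 519, 725, 831 and 682 CPM, and Bcl11b at 241, 303.2, 359 and 283 CPM. Library 17 was the lowest of the line for these 3 genes, whereas its Ppp1r1b (1567 CPM) and Rasd2 (986 CPM) were above the line's medians of 1383 and 837 CPM. Its cortical and oligodendrocyte marker sums, the highest of the line, stand beside these values, and their part in the result was not tested.

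The same genes of the 16p11.2 line spread more widely. Their sum ran from 5959 to 10751 CPM, a 1.80-fold range. Rasd2 spanned 2.33-fold (565 to 1319 CPM), Pde10a 2.0-fold (863 to 1726 CPM) and Ppp1r1b 1.85-fold (944 to 1741 CPM), while Foxp1, with the narrowest span, ran 1.5-fold (174 to 261 CPM). The spread lay inside the groups rather than between them. Among del/+ females, libraries 2 and 3 summed to 10319 and 10751 CPM, with 8 and 9 of the 9 genes above the line's median, and libraries 1 and 4 to 7645 and 7927 CPM, with 0 of 9 above it. Among del/+ males, library 2 summed to 5959 CPM and held the lowest value of the line for 7 of the 9 genes, and library 1 summed to 9071 CPM with 8 of 9 above the median. Wt libraries split as well: wt female 3 (7571 CPM) and wt male 4 (7192 CPM) had 0 of 9 above the median, against 9 of 9 in wt females 1 and 4. Marker sums differed between the low libraries read here, del/+ male 2 and del/+ females 1 and 4. Del/+ male 2 had cortical, oligodendrocyte and astrocyte marker sums of 2073, 9463 and 943 CPM, inside the ranges of the line, while its striatal interneuron sum of 320.0 CPM was the lowest of the line (332 to 423 CPM in the others). Del/+ females 1 and 4 had oligodendrocyte sums of 8522 and 13530 CPM, the latter the highest of the line. The part of these markers in the result was not tested.

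**Figure D1:**
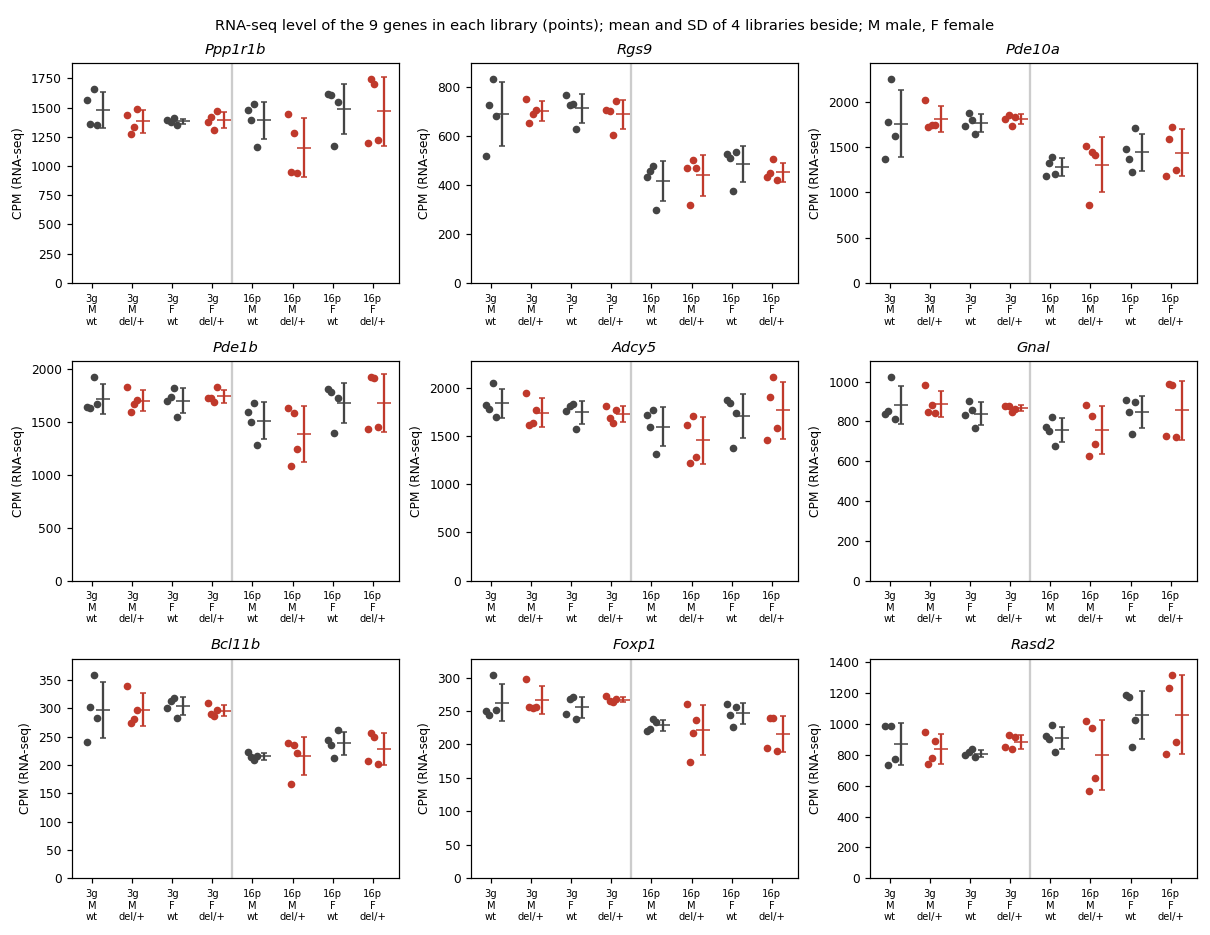
Level of each of the 9 genes in every RNA-seq library (points, CPM on the vertical axis of each panel), by line, genotype and sex, with the mean and SD of the 4 libraries of a group. The 3g libraries lie close together, with a 1.29-fold range of the summed level, whereas 16p11.2 libraries of one group are spread, and the del/+ and wt groups overlap for every gene.

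The members tracked one another. Over the 16 libraries of the 16p11.2 line the Pearson correlation of one gene's log2 CPM with the mean of the other 8 ran from 0.708 (Foxp1) to 0.976 (Pde1b), and over 15 libraries without del/+ male 4 from 0.766 to 0.983. For the 3g line it ran from 0.50 (Rasd2) to 0.911 (Pde1b), and without wt male 17 from 0.774 to 0.932. These are descriptions over libraries that share their dissection, depth and cell make-up. The SD of log2 CPM within groups was 0.302 for Rasd2 in the 16p11.2 line and 0.164 to 0.258 for the other 8 genes, beside a median of 0.182 over 14801 genes, and 0.0902 to 0.174 in the 3g line beside a median of 0.147 over 15362 genes.

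The genes outside the set whose levels followed the mean of the 9 most closely, by Pearson r of log2 CPM over the 16 libraries of a line, were Cacna2d3 (0.925), Meis2 (0.898), Ric8b (0.889), Phactr1 (0.889) and Itpr1 (0.876) in the 3g line. Meis2 encodes a homeodomain factor of the striatal lineage, Ric8b a chaperone of Golf, and Itpr1 a calcium release channel. Those of the 16p11.2 line were Ptpn7 (0.959), Kctd17 (0.953), Slc8a3 (0.949), Cd4 (0.945) and Itga9 (0.944). None of the 5 was shared between the lines. Without wt male 17 the first in the 3g line was Drd2, the dopamine D2 receptor (0.946, 15 libraries), and without del/+ male 4 the first in the 16p11.2 line was Cd4 (0.980, 15 libraries).

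Libraries of both lines were counted and normalized in separate tables, so their levels are set side by side without a test. Rgs9 stood at 604 to 831 CPM in 15 of the 3g libraries, at 519 CPM in wt male 17, and at 296 to 533 CPM in the 16 libraries of the 16p11.2 line. Bcl11b stood at 274 to 359 CPM in the same 15 libraries, at 241 CPM in wt male 17, and at 167 to 261 CPM in the 16p11.2 line. Rasd2, by contrast, overlapped, at 736 to 990 CPM in the 3g line and 565 to 1319 CPM in the 16p11.2 line. For Rgs9 and Bcl11b wt male 17 of the 3g line therefore lay within the range of the other line.

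The first comparison asked whether the RNA of these genes differed between 3g del/+ and wt striatum. In males none of the 9 was called, beside 0% of the 19081 genes tested (edgeR quasi-likelihood test, Benjamini-Hochberg adjusted p under 0.05; 274 genes at an unadjusted p under 0.05, and 1 gene called by DESeq2). Log2 differences ran from -0.09 (Ppp1r1b, SE 0.094) to 0.05 (Pde10a, SE 0.141), with a median of 0.01 beside -0.0001 over all genes. The 95% interval of Ppp1r1b ran from -0.30 to 0.11 and that of Pde10a from -0.27 to 0.36. Without wt male 17, Pde10a moved to -0.06 and Rgs9 from 0.03 to -0.09. Without wt male 26 they moved to 0.19 and 0.13.

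In 3g females the spread was smaller and again 0 of the 9 genes was called, beside 0.00526% of 19024 genes (DESeq2 also called 0 of the 9). The member furthest from 0 was Rasd2, Rhes. Its levels were 853, 926, 837 and 917 CPM in del/+ females 28, 31, 36 and 37 and 797, 818, 837 and 783 CPM in wt females 29, 30, 35 and 39. The lowest del/+ value met the highest wt value, and the other 3 del/+ values were above all 4 wt values. The log2 difference was 0.13 (SE 0.042, 95% interval 0.03 to 0.22, unadjusted p = 0.0116, adjusted p = 0.338, edgeR quasi-likelihood test). In males, Rasd2 stood at 947, 742, 779 and 887 CPM in del/+ libraries 25, 27, 32 and 33 and at 986, 736, 990 and 775 CPM in wt libraries 17, 24, 26 and 34, a difference of -0.05 (SE 0.123). The difference of the genotype effect between the sexes, tested as an interaction, was 0.18 for Rasd2 (SE 0.136, adjusted p = 0.901, edgeR), and 0 of the 9 genes was called, beside 0% of all genes (533 genes at an unadjusted p under 0.05, and 0 called by DESeq2). The other 8 genes lay between -0.05 (Rgs9) and 0.06 (Foxp1) in females.

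The second comparison asked the same of the full deletion. In 16p11.2 males 0 of the 9 genes was called, beside 0.106% of 17957 genes (DESeq2 also called 0 of the 9). Ppp1r1b, the gene of DARPP-32, had the lowest value, with 1447, 950.0, 1285 and 944 CPM in del/+ males 1 to 4 and 1476, 1392, 1527 and 1162 CPM in wt males 1 to 4. Del/+ males 2 and 4 lay under all wt males and the other 2 within their range. The log2 difference was -0.26 (SE 0.161, 95% interval -0.62 to 0.09, adjusted p = 0.742, edgeR), and it ran from -0.39 without del/+ male 1 to -0.18 without del/+ male 4. Rasd2 followed at -0.18 (SE 0.184), with 1017, 565, 972 and 647 CPM against 921, 905, 992 and 819 CPM. The same 2 del/+ libraries were low for both genes. The remaining 7 genes lay between -0.14 (Adcy5) and 0.08 (Rgs9), and the median over the 9 was -0.04 beside -0.01 over all genes.

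In 16p11.2 females 0 of the 9 genes was called, beside 0.144% of 18067 genes (DESeq2 also called 0 of the 9). The library del/+ female 1, with 37.1 CPM of Ddx3y and 0.445 CPM of Xist, goes against its label. The female values and the difference between the sexes given here include that library. Foxp1 had the lowest value, with 195, 239, 239 and 190 CPM in del/+ females 1 to 4 and 260, 245, 226 and 256 CPM in wt females 1 to 4. Its log2 difference was -0.20 (SE 0.091, unadjusted p = 0.0537, adjusted p = 0.998, edgeR), and the groups overlapped. The other 8 lay between -0.11 (Rgs9) and 0.04 (Adcy5), and the male value of Foxp1 was -0.04 (SE 0.12). For Ppp1r1b the female difference was -0.02 (SE 0.152), and the difference between the sexes was 0.25 (SE 0.234, adjusted p = 0.853, edgeR interaction test). No member was called in that interaction, beside 0% of all genes (818 genes at an unadjusted p under 0.05, and 3 genes called by DESeq2). Over both sexes, with sex in the model, 0 of 9 was called in the 3g line beside 0.00504% of 19830 genes and 0 of 9 in the 16p11.2 line beside 0.18% of 18870 genes. Leaving out del/+ male 4 and del/+ female 1 kept the latter count at 0 and moved Ppp1r1b from -0.14 to -0.06, and Rasd2 from -0.09 to 0.01, while Foxp1 stood at -0.12 in both fits.

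**Figure D2:**
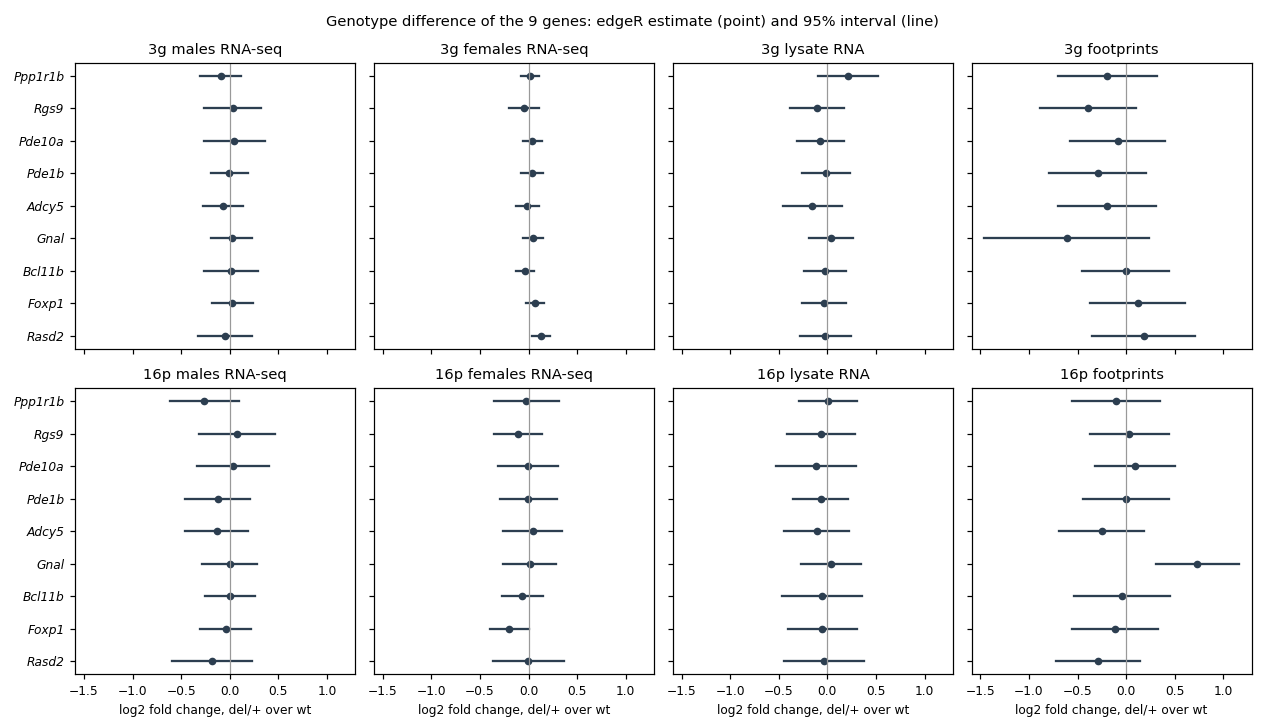
Log2 difference of del/+ against wt for each of the 9 genes (horizontal axis), with 95% intervals from the edgeR fit, for RNA-seq of each line and sex and for lysate RNA and footprints of males. No gene was called at an adjusted p under 0.05 in any panel, and the interval of Gnal in 16p11.2 footprints (0.30 to 1.16) lies to the right of 0.

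Between the sexes, the wt females of the 16p11.2 line had higher values than the wt males for all 9 genes, though no gene was called (0 of 9, beside 0.0336% of 17831 genes). The log2 differences ran from 0.10 (Ppp1r1b) to 0.22 (Rasd2, SE 0.113, adjusted p = 0.968, edgeR), with a median of 0.15 beside -0.004 over all genes. The groups overlapped for every gene, and since the 9 genes track one another these are not 9 separate observations. Wt male 4, one of the libraries that stood apart, was the lowest wt male for Rgs9, with 296 CPM against 432, 458 and 479 CPM in the other 3, and without it the difference of Rgs9 fell to 0.09 and that of Ppp1r1b to 0.02. Wt females of the 3g line were higher for 3 genes and lower for 6, from -0.10 (Rasd2) to 0.05 (Rgs9), and 0 of 9 was called beside 0.0308% of 19458 genes.

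Animals of the lysate experiment are numbered here from 1 within line and genotype, in the order of their label numbers. In the lysate RNA of these other males, 0 of 9 was called in the 3g line (0.0209% of 14378 genes) and 0 of 9 in the 16p11.2 line (0.133% of 14330 genes). Differences in the 3g line ran from -0.16 (Adcy5, SE 0.141) to 0.21 (Ppp1r1b, SE 0.145, adjusted p = 0.949, edgeR). Ppp1r1b stood at 342, 391.8 and 522 CPM in del/+ animals 1 to 3 and at 316, 393 and 375 CPM in wt animals 1 to 3, so 1 del/+ animal was high and the rest overlapped. The difference of Ppp1r1b fell to 0.02 without del/+ animal 3. Those in the 16p11.2 line ran from -0.12 (Pde10a, SE 0.189) to 0.04 (Gnal, SE 0.144), and Ppp1r1b, lowest in the RNA-seq of males, stood at 0.01 (SE 0.137).

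The next measurement was of ribosome footprints, the fragments of messenger RNA that ribosomes protect, which follow how much of a messenger is being translated. For the 3g line 0 of 9 genes was called, beside 0.0132% of 7553 genes. Values ran from -0.61 (Gnal) to 0.18 (Rasd2, SE 0.251), with -0.39 for Rgs9 (SE 0.233) and -0.29 for Pde1b (SE 0.236), and the median of -0.19 stood beside -0.01 over all genes. Rgs9, the G protein regulator, stood at 293, 318.9 and 333 CPM in del/+ animals 1 to 3 and at 310, 483 and 446 CPM in wt animals 1 to 3, so that wt animal 1 lay among the del/+ animals. The del/+ footprint libraries, with 527917 to 678130 counts, were all deeper than the wt ones, with 342052 to 422918 counts, and the part of depth in these values was not tested. For the 16p11.2 line 0 of 9 was called, beside 0.117% of 5964 genes. Apart from Gnal, values ran from -0.29 (Rasd2, SE 0.211) to 0.09 (Pde10a, SE 0.202).

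Gnal, the gene of Golf, had the largest footprint difference of the 9 in each line, with opposite signs. Its footprints in the 16p11.2 line stood at 2002, 2383 and 1622 CPM in del/+ animals 1 to 3 and at 1143, 1040.0, 1398 and 1237 CPM in wt animals 1 to 4. Every del/+ animal was above every wt animal, and 6.69% of the 5964 genes had groups that did not overlap in one direction or the other. The log2 difference was 0.73 (SE 0.211, 95% interval 0.30 to 1.16, unadjusted p = 0.00142, adjusted p = 0.230, edgeR), which was not called. DESeq2 gave 0.73 with an adjusted p of 0.0261, which was the only call of a member in any genotype or sex comparison under any setting, 1 of 1890 values. With 1 animal left out the edgeR value ran from 0.59 to 0.86 and its adjusted p from 0.225 to 0.725. The RNA of the same lysates did not follow it, with 332, 371 and 427 CPM in del/+ and 309, 387, 326 and 446 CPM in wt animals, a log2 difference of 0.04 (SE 0.144). Marker sums in the footprint libraries overlapped between the groups for cortical neurons (871 to 1115 CPM in del/+, 727 to 1400 CPM in wt) and oligodendrocytes (2308 to 2842 and 2325 to 2561 CPM).

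Gnal footprints of the 3g line were scattered inside each group. They stood at 378, 376 and 702 CPM in del/+ animals 1 to 3 (168, 245 and 390 counts) and at 235, 826 and 1163 CPM in wt animals 1 to 3 (82, 306 and 412 counts). The lowest and the 2 highest values all belonged to wt animals. The log2 difference was -0.61 (SE 0.403, 95% interval -1.46 to 0.24, adjusted p = 0.716, edgeR), and it ran from -1.03 without wt animal 1 to -0.13 without wt animal 3. Lysate RNA of Gnal stayed between 373 and 446 CPM in all 6 animals. The within-group SD of log2 footprints per RNA was 0.886 for Gnal, a spread that 37 of 2007 genes exceeded, beside a median of 0.267 and 0.0822 to 0.232 for the other 8 members. For the 16p11.2 line it was 0.363, exceeded by 675 of 2643 genes, with a median of 0.279. This spread was looked at after its values were seen. The footprint counts of the protein-coding genes that overlap Gnal were low, 0 to 8 for Chmp1b and 4 to 21 for Mppe1. The small nuclear RNA gene Gm23512, which also overlaps Gnal, was not found among the genes counted for footprints or lysate RNA. Any part of its fragments in the Gnal values was not tested.

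**Figure D3:**
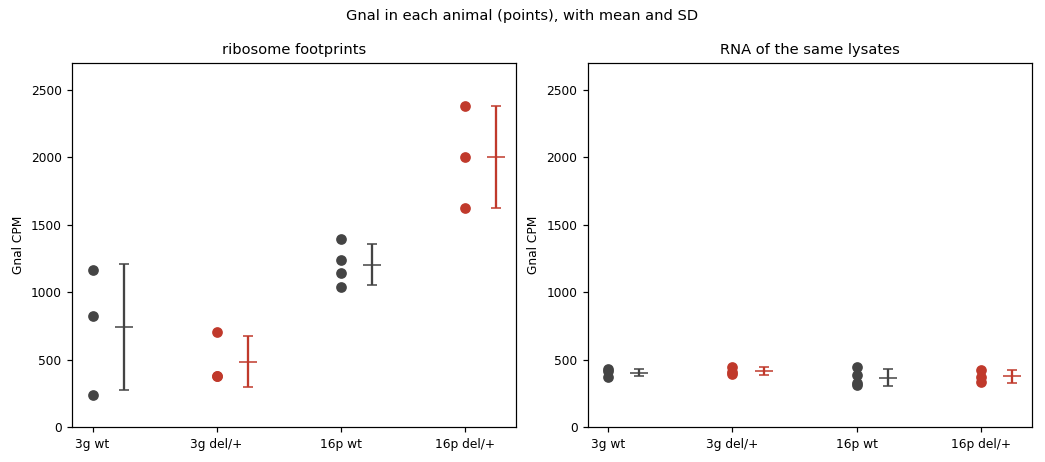
Gnal in each male animal of both lines (points, CPM), in footprints on the left and in RNA of the same lysates on the right, with the mean and SD of each group. Footprints of the 3 16p11.2 del/+ animals (1622 to 2383 CPM) lie above those of the 4 wt animals (1040.0 to 1398 CPM), 3g footprints spread from 235 to 1163 CPM, and RNA stays between 309 and 446 CPM.

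Footprints per RNA, the ratio of both CPM values in one animal, compare footprints with the RNA they come from. The test of the genotype effect on that ratio, an interaction of genotype and assay in one edgeR fit, called 0 of 9 genes in the 3g line (0% of 15137 genes) and 0 of 9 in the 16p11.2 line (0.00664% of 15071 genes). DESeq2 called 0 of 9 in either line, and 16 genes in all in the 3g line. Gnal stood at 0.62 in the 16p11.2 line (SE 0.238, unadjusted p = 0.0151, adjusted p = 0.764) and at -0.63 in the 3g line (SE 0.446, adjusted p = 0.779). In the fit that pairs footprints and RNA of one animal as a replicate block, Gnal stood at 0.60 in the 16p11.2 line (SE 0.171, adjusted p = 0.207, edgeR) and at -0.48 in the 3g line. Ppp1r1b, the gene of DARPP-32, had ratios of 1.30, 1.39 and 1.31 in 3g del/+ animals 1 to 3 and of 1.83, 1.92 and 1.54 in wt animals 1 to 3. All 3 del/+ animals were below all 3 wt animals, beside 14.2% of 2007 genes with 100 or more wt footprints whose groups did not overlap in either direction. Its log2 difference was -0.37 (SE 0.27, adjusted p = 0.785, edgeR). Ppp1r1b had 16p11.2 ratios of 1.079, 1.18 and 1.30 in del/+ and 1.02, 1.35, 1.24 and 1.44 in wt animals, which overlapped. In that line no member had groups that did not overlap in this ratio, beside 6.66% of 2643 genes.

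Within wt animals the 9 genes differed from one another in how many footprints they had for their RNA, relative to the average gene. Of the 9, 6 differed in the 3g line, 2 with more and 4 with fewer footprints, and 6 in the 16p11.2 line, 3 with more and 3 with fewer. The background was high, with 44.3% of 13963 genes and 46.6% of 13682 genes called. Both transcription factors had few footprints: Foxp1 had a log2 footprint to RNA difference of -1.23 (SE 0.186, adjusted p = 0.000151) in the 3g line and -1.02 (SE 0.167, adjusted p = 4.75e-05) in the 16p11.2 line by the edgeR quasi-likelihood test, and Bcl11b -0.81 and -0.66 (adjusted p = 0.00191 and 0.00333). The phosphodiesterases parted. Pde10a had -0.68 and -0.62 (adjusted p = 0.0117 and 0.00542) and Pde1b 0.52 and 0.49 (adjusted p = 0.0349 and 0.0131). Adcy5, the cyclase, was high in both lines, at 0.77 (SE 0.183, adjusted p = 0.00391) and 1.083 (SE 0.162, adjusted p = 1.65e-05).

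The lines differed in which of the remaining genes were called, and a difference between the lines was not tested. Gnal was called in the 16p11.2 line at 1.34 (SE 0.155, adjusted p = 6.67e-07) and stood at 0.18 in the 3g line (SE 0.376, adjusted p = 0.721). Rasd2 was called in the 3g line at -0.58 (SE 0.199, adjusted p = 0.0309) and stood at -0.20 in the 16p11.2 line (SE 0.178, adjusted p = 0.377). Ppp1r1b (0.13 and -0.0036) and Rgs9 (0.44 and 0.29) were called in neither by this edgeR test, while with the animals as a replicate block Rgs9 was called in the 16p11.2 line, at 0.30 (adjusted p = 0.0267). The 3g count of 6 fell to 4, 3 and 2 without wt animals 1, 2 and 3, each of which leaves 2 wt animals. Without a filter on low counts Pde1b stood at 0.43 in the 3g line (adjusted p = 0.0829).

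As ratios, the order in wt animals of the 3g line (n = 3) ran from Foxp1 (0.686 ± 0.0144, SD) through Bcl11b (0.923 ± 0.0565), Pde10a (1.00 ± 0.0812), Rasd2 (1.07 ± 0.131), Ppp1r1b (1.77 ± 0.200), Gnal (1.79 ± 1.10), Rgs9 (2.16 ± 0.170) and Pde1b (2.31 ± 0.204) to Adcy5 (2.80 ± 0.535). In wt animals of the 16p11.2 line (n = 4) it ran from Foxp1 (0.634 ± 0.0290) through Pde10a (0.844 ± 0.0316), Bcl11b (0.844 ± 0.166), Rasd2 (1.14 ± 0.182), Ppp1r1b (1.26 ± 0.179), Rgs9 (1.62 ± 0.254), Pde1b (1.81 ± 0.128) and Adcy5 (2.72 ± 0.238) to Gnal (3.36 ± 0.768). The ratio divides footprints by RNA of the same gene, so the length of the gene cancels to the extent that footprints and RNA cover the same exons. Some neighbours in this order were separate. The 3g animals of Foxp1 and Bcl11b, and of Rasd2 and Ppp1r1b, did not overlap, and in the 16p11.2 line those of Foxp1 and Pde10a, and of Pde1b and Adcy5. For the other neighbours the ranges of the animals overlapped, and differences between 2 genes within an animal were not tested. The median over genes with 100 or more wt footprints was 1.79 in the 3g line and 1.30 in the 16p11.2 line. Foxp1 stood at the 10.4th and 14th percentile of those genes, Adcy5 at the 72.7th and 84.9th, and Gnal at the 41.7th and 89.6th.

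**Figure D4:**
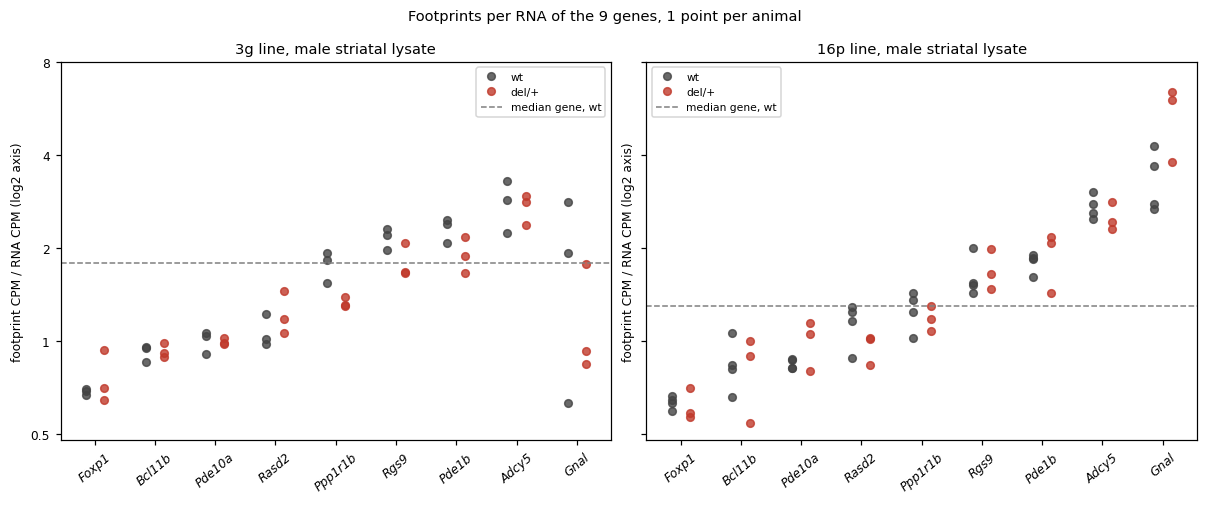
Footprints per RNA of the 9 genes in each male animal (points, ratio of CPM values on a log axis), with wt and del/+ animals of both lines side by side. Foxp1 is lowest in both lines (wt means 0.686 and 0.634), Adcy5 is high in both (2.80 and 2.72), and Gnal is scattered in the 3g line and highest in the 16p11.2 line.

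The other genes of dopamine and cAMP signalling, a list of 40 that holds receptors, G protein subunits, kinase subunits, phosphatases and phosphodiesterases, were read beside the 9. Of the 40, 0 was called in the 3g line in RNA-seq of either sex, lysate RNA or footprints, where 39 were tested. The medians were -0.04 in males and 0.01 in females. The 16p11.2 line had 1 of 40 called, Mapk3, the kinase ERK1, which lies inside the deleted interval. It was lower by RNA-seq in del/+ males, at -1.21 (SE 0.121, adjusted p = 0.00128, edgeR), in del/+ females at -0.90 (adjusted p = 0.00187, edgeR) and in lysate RNA at -0.93 (adjusted p = 0.0107, edgeR). In footprints Mapk3 stood at -1.09 (adjusted p = 0.230, edgeR). The list's median was -0.08 in males and -0.04 in females. Of a list of 32 identity genes of projection neurons 31 were tested (27 in footprints), and 0 was called in any genotype comparison of RNA-seq, lysate RNA, footprints or footprints per RNA.

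In wt animals, 25 of the 40 signalling genes were called for footprints against RNA in each line, 3 with more and 22 with fewer footprints, with medians of -0.71 in the 3g line and -0.55 in the 16p11.2 line, beside 44.3% and 46.6% of all genes called in the respective line. Cdk5, a kinase that phosphorylates DARPP-32, had more in both (0.79 and 0.97). Prkar2a (0.84), a regulatory subunit of the cAMP-dependent kinase, and Rasgrp2 (0.78) had more in the 3g line, and Adora2a (0.55), an adenosine receptor coupled to Golf, and Pde2a (0.50) in the 16p11.2 line. Among those with fewer were Creb1, the cAMP response factor (-2.88 and -1.40), Akap5, a kinase anchor (-2.75 and -1.42), Arpp21 (-2.08 and -1.72), Gnai1 (-1.58 and -1.10) and Drd1, the dopamine D1 receptor (-0.67 and -0.67). Among the 9 members, Adcy5 and Pde1b had more footprints like the smaller group of this list, and Foxp1, Bcl11b and Pde10a had fewer like the larger one. Of the 31 identity genes, 17 were called in the 3g line, 6 with more and 11 with fewer, and 18 in the 16p11.2 line, 6 with more and 12 with fewer, also to be read against the 44.3% and 46.6% of all genes. Sp9 (1.98 and 2.56), Penk (1.68 and 1.68) and Pdyn (1.17 and 0.81), a transcription factor and the precursors of enkephalin and dynorphin, had more. Meis2 (-2.16 and -1.60), Gad2 (-1.81 and -1.65) and Foxp2 (-1.23 and -1.37) had fewer, the last of these beside its relative Foxp1.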

How the data were processed

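Counts per gene of 32 RNA-seq, 13 lysate RNA and 13 footprint libraries of mouse striatum were used as deposited by the authors, with no normalization. Their RNA-seq counts came from the bcbio-nextgen pipeline, and the submitters' processing notes name HTSeq and mm10 and, for the lysate libraries, Bowtie2 and mm39 without a role. How footprints were counted, and on which strand, is not given in the sources used here, so reads of overlapping genes may be shared. The labels and the paper differ on read length, the RNA selected and the extraction text, and the paper's description was followed.

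Each table was filtered (filterByExpr) and fitted whole with edgeR 4.0.16 (R 4.3.3, limma 3.58.1): TMM library sizes, the quasi-likelihood test and Benjamini-Hochberg adjustment over all genes tested, with a call at an adjusted p under 0.05. SE and 95% intervals come from the F statistic. Footprint and lysate RNA libraries of one animal are paired, since they come from the same lysate (correlations of their deviations 0.0792 to 0.318). The main fits that join footprints and RNA hold no term for the animal and treat both libraries as independent. Only the replicate block, given as an alternative, uses the pairing. The text of the paper read here names no test for the RNA-seq counts and refers to a supplement and code that were not used here. The alternatives were DESeq2 1.42.0, RLE library sizes, no filter (genes with at least 1 count), 1 fit over all 16 libraries of a line, a replicate block, and leaving out each library or animal. On simulated counts of the 16p11.2 male RNA-seq design, 100% of 100 genes changed by a log2 of 1 were called, for its footprints 94%, and for its footprints per RNA 65%. The 3g designs were not simulated. In the measured 16p11.2 footprints, Sez6l2 and Taok2 each stood at -0.97 and were not called (adjusted p = 0.0671 and 0.0921, edgeR). Whether simulated and measured counts spread alike was not tested. With 342052 to 678130 counts per footprint library, members had at least 29 footprint counts in the 16p11.2 line and 62 in the 3g line.

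The members and gene lists were chosen with earlier results of these data known. Named are all 9 members, the targeted genes, list genes that passed a test, and the 5 genes most like the members' mean level. The cell type markers are fixed lists of 4 to 6 genes each.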

Additional observations from a re-analysis of the deposited data

Results flagged for a closer look

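In 99 groups of 4 libraries, 8 member values lay apart from the other 3 of their group by Dixon's test at its 95% critical value. Chance alone sets about 1 in 20 groups apart, and the 9 genes track one another. In the 3g line, del/+ male 25, the library with the fewest counts of the line, was high for Pde10a (2024 CPM against 1722 to 1746) and Foxp1 (297.5 CPM against 254.9 to 256.5). Wt male 26 was high for Pde1b (1922 CPM against 1632 to 1669) and Foxp1 (304.1 CPM against 243.8 to 251.8). In the 16p11.2 line, wt female 3 was low for Ppp1r1b (1172 CPM against 1548 to 1620) and Rgs9 (374.8 CPM against 508.5 to 533.4), and del/+ male 2 was low for Pde10a (863.1 CPM against 1418 to 1508). In footprints, Rasd2 of 16p11.2 wt animal 4 was high (274.3 CPM against 186.8 to 200.8).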

How the results depend on the processing

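The count of members called stayed at 0 in all 16 comparisons of genotype or sex under every alternative run, except 1 under DESeq2 in 16p11.2 footprints (Gnal). Of wt footprints against RNA in the 3g line, 6 members were called, and 2 to 4 with 1 animal left out; these fits have fewer samples. In the 16p11.2 line the count stayed at 6 with 1 animal left out and was 7 with the replicate block (6 in the 3g line). Of 603 member differences under other settings, 29 had the other sign and 3 the other side of the threshold. Of 1422 with 1 library or animal left out, these were 192 and 9. The changes of sign were mostly of values near 0. Leaving out 16p11.2 del/+ male 4 and del/+ female 1 was chosen after seeing the data.

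Counts over all genes moved more, and the cause was not tested. DESeq2 called 117 genes in 3g females (edgeR 1), 17 in 3g over both sexes (1), 33 and 43 between the sexes of wt 3g and 16p11.2 mice (6 each), 13 in 3g lysate RNA (3), 11 in 3g footprints (1), 16 in 3g footprints per RNA (0), 32, 49 and 60 in 16p11.2 males, females and both (19, 26 and 34), 31 in 16p11.2 lysate RNA (19), 15 in footprints (7) and 4 in footprints per RNA (1). Without a filter 158 genes were called in 3g females, 127 in 3g footprints, 9 in 3g lysate RNA, 1 in 3g footprints per RNA, 45 in 16p11.2 females, 15 between wt sexes, 43 in 16p11.2 footprints and 2 in footprints per RNA. One fit over all libraries called 1 gene in 3g males. Without wt female 39, 175 genes were called in 3g females, and without wt animal 1, 24 in 3g footprints. The replicate block called 10 genes for footprints per RNA in each line. RNA-seq numbers 1 to 4 of the 16p11.2 line do not pair libraries (correlations -0.256 to 0.107, own number highest for 1 of 8), and a replicate block there called 0 members and 14, 22 and 27 genes in males, females and both. Footprint counts were low beside those of RNA, with 82 to 412 Gnal counts per 3g footprint library. The part of depth in the footprint values was not tested.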
